A study of Homo sapiens with 6 samples.

Results

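Glycolysis turns glucose into pyruvate in the cytosol, and 10 enzymes carry it from hexokinase to pyruvate kinase. The genes described here are 1 for each step: HK2, GPI, PFKP, ALDOA, TPI1, GAPDH, PGK1, PGAM1, ENO1 and PKM. They were taken by symbol from a deposited count table of 31582 genes, in which all 10 have a row, and all 10 passed the filter on low counts that left 16394 genes for testing. The libraries are polyadenylated RNA of MDA-MB-231, an established human breast cancer line of triple-negative type, grown in medium with serum and harvested below confluence. Cells of 3 libraries carried an shRNA against CALR (labelled shCALR, genotype CALR Knockdown), and cells of the 3 control libraries are labelled NTC (genotype Control). CALR encodes calreticulin, a chaperone that binds calcium in the endoplasmic reticulum, and the series title places it under the hypoxia factor HIF-1. Nothing in the labels tells separate cultures, clones or shRNA sequences apart within a group, so p-values measure only the spread between these libraries.

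The pathway has a preparatory stretch (hexokinase, glucose-6-phosphate isomerase, phosphofructokinase, aldolase and triosephosphate isomerase), which spends ATP, and a payoff stretch (glyceraldehyde-3-phosphate dehydrogenase, phosphoglycerate kinase, phosphoglycerate mutase, enolase and pyruvate kinase), which returns ATP and NADH. Many tumour cells run it fast even with oxygen present. Several of its genes are textbook targets of HIF-1 and of MYC.

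Totals were 34639090 to 42425310 counts per library. CALR itself was at 493, 66.4 and 110.1 CPM (counts scaled to TMM-adjusted library sizes) in knockdown replicates 1 to 3 and at 1213, 979 and 926 in control replicates 1 to 3. The remaining CALR was thus 47.5%, 6.39% and 10.6% of the control mean. Mesenchymal markers of the line were present, with VIM, CD44, AXL and CAV1 at 232 to 3177 CPM, and of the luminal epithelial markers ESR1, PGR and CDH1 stayed at or below 0.596, 2.03 and 1.14 CPM, EPCAM was at 6.25 to 8.71 CPM, and the keratins KRT8 and KRT18 were present at 149 to 231 CPM. Of the blood markers, PTPRC and CD3E were at 0.257 CPM or less and CD14 at 0.286 to 1.07 CPM. The endothelial marker PECAM1 was at 1.71 to 4.17 CPM in knockdown and 0.848 to 1.56 in control libraries, while CDH5, the other listed one, did not exceed 0.054 CPM. The part of that difference in the results below was not tested. In bulk RNA, a change in the number of cells of a type and a change in RNA per cell cannot be told apart.

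Nearly the whole pathway stood higher in the CALR knockdown group. Every one of the 10 genes had a positive log2 fold change, from 0.34 for HK2 to 1.03 for PKM, with a median of 0.71 beside −0.00072 over all genes tested. The quasi-likelihood F-test of edgeR called none of them after adjustment over all genes (0 of 10, and 0% of all tested genes). At an unadjusted p under 0.05, 9 of the 10 were higher in knockdown, all except HK2, and 0 were lower. The same rule called 8.17% of all tested genes as higher. For 7 of the 10, all 3 knockdown libraries lay above all 3 controls, which held for 11.3% of the genes tested, and the exceptions were HK2, TPI1 and PGK1. DESeq2 called 3 of the 10 after adjustment (ALDOA, GAPDH and PKM), where it called 1.77% of all tested genes as higher, and limma-voom called 0. Without the low-count filter edgeR called 6 (1.36% of all genes). In that fit the SE was nearly the same for all 10 enzymes, 0.21 to 0.23, and was 0.22 for CALR. With the filter it was 0.16 to 0.29 for the enzymes and 0.64 for CALR. The 6 calls thus hardly reflect each gene's own spread between libraries. With library sizes alone 6 enzymes were at an unadjusted p under 0.05 (4.45% of all genes).

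**Figure D1:**
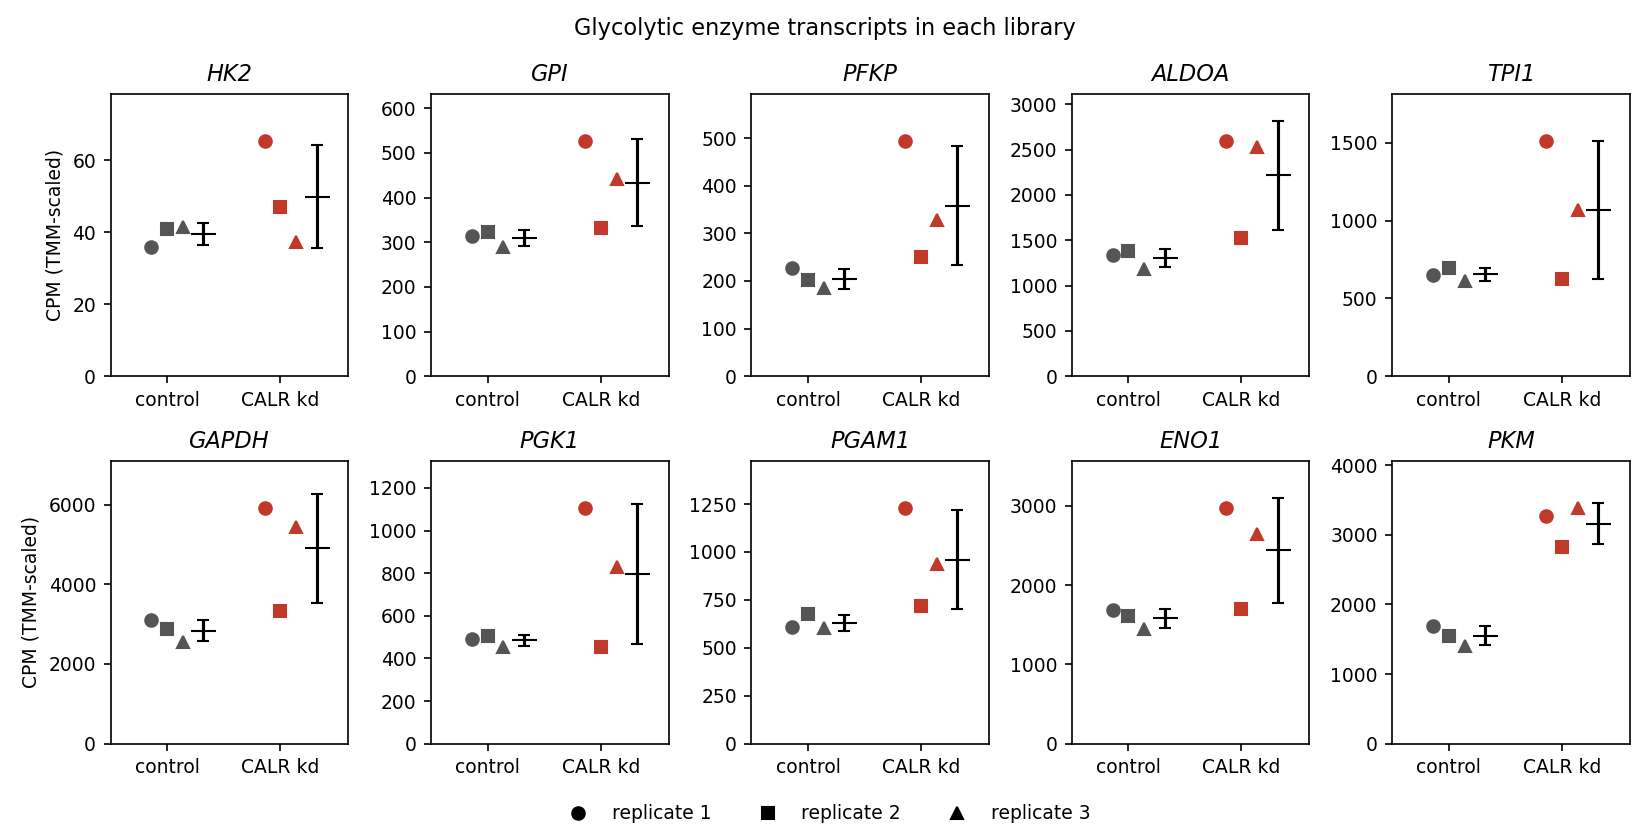
TMM-scaled CPM of each enzyme gene (y axis, from 0) in the 3 control and 3 CALR knockdown (CALR kd) libraries; symbols mark the replicate and the bar the mean ± SD of each group. PKM has 3 knockdown libraries between 2828 and 3383 CPM against 1409 to 1692 in the controls, whereas in most other genes replicate 2 lies close to the controls.

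The height of the pathway differed between the knockdown libraries. The 10 genes together held 1.85%, 1.24% and 1.55% of the reads of knockdown replicates 1, 2 and 3, beside 0.942% to 1.04% in control libraries. Replicate 1 had a median difference of 1.03 (log2 CPM minus the control mean) over the 10 genes, replicate 3 of 0.73 and replicate 2 of only 0.21. Control medians ran from −0.11 to 0.06. Replicate 1 exceeded the highest control in all 10 genes, replicate 3 in 9 and replicate 2 in 8. In 8 of the 10 genes the knockdown libraries fell in the same order, replicate 1 above 3 above 2, and HK2 and PKM were the exceptions. That order is also the order of the remaining CALR among the knockdown libraries, although the controls, with the most CALR, had the lowest enzyme levels. Whether the pathway's height is tied to the degree of knockdown was not tested.

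**Figure D2:**
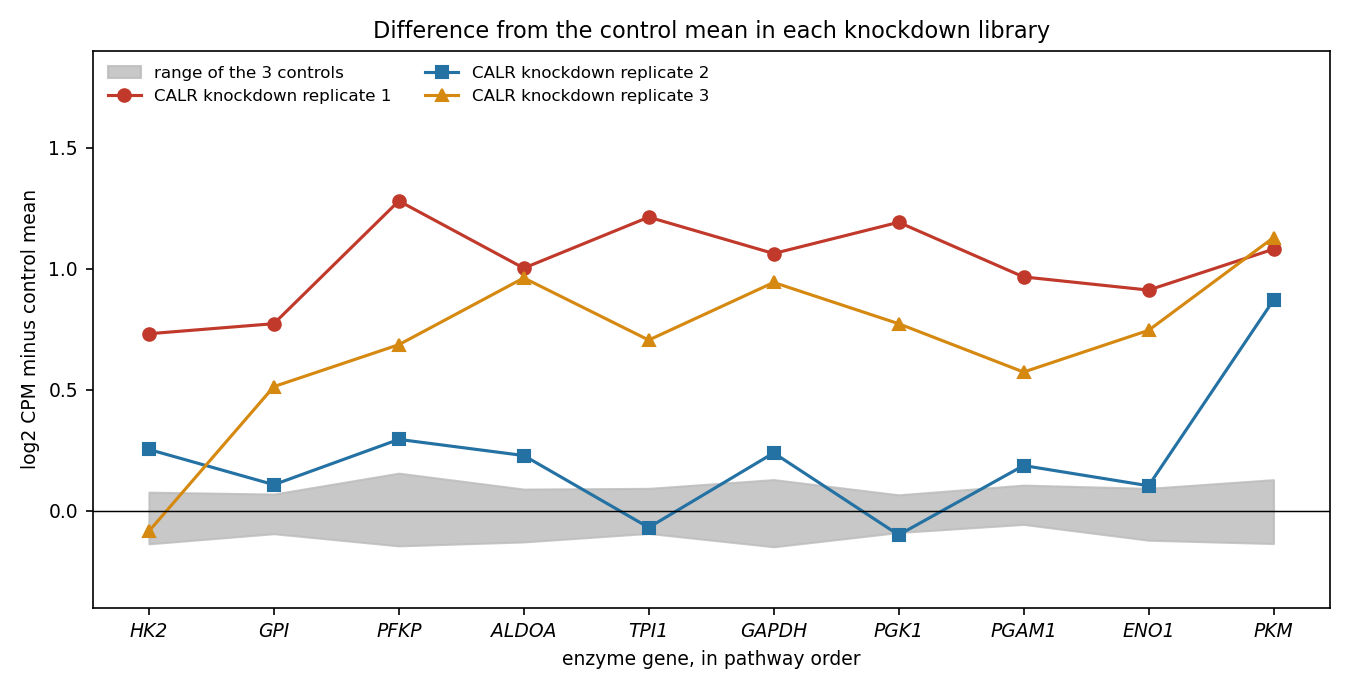
Difference of log2 CPM from the control mean (y axis) for each gene in pathway order, with 1 line per CALR knockdown library and a grey band for the range of the 3 controls. Replicates 1 and 3 run well above the band except for HK2 in replicate 3, and replicate 2 stays between −0.10 and 0.30 from HK2 to ENO1 and reaches 0.87 at PKM.

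Leaving out single libraries moved these counts. Without knockdown replicate 1 the median of the 10 genes was 0.43, and 4 of them (PFKP, ALDOA, GAPDH and PKM) stayed at an unadjusted p under 0.05, where 5.33% of all genes were called higher. Without knockdown replicate 2 the median was 0.98, and 9 of the 10, all except HK2, passed edgeR's adjusted threshold, where 7.76% of all genes did so as higher (17.9% at an unadjusted p under 0.05). Without knockdown replicate 3, PKM alone passed it (adjusted p = 0.046 in edgeR), with 0.125% of all genes, and 8 enzymes were at an unadjusted p under 0.05 (7.83% of all genes). Leaving out control replicate 1, 2 or 3 left 5, 5 and 4 of the 10 at an unadjusted p under 0.05, where 6.35%, 3.86% and 2.87% of all genes were called higher.

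Pyruvate kinase varied least among the knockdown libraries, with a coefficient of variation of 9.28% where the other 9 genes had 22.5% or more. PKM encodes the muscle-type enzyme, whose spliced forms PKM1 and PKM2 are both counted in 1 row here, and which makes pyruvate and ATP in the last step. The gene lies on chromosome 15 at 72199029 to 72231822 (GRCh38, minus strand, ENSG00000067225.17). It was at 3272, 2828 and 3383 CPM in knockdown replicates 1 to 3 and at 1692, 1553 and 1409 CPM in control replicates 1 to 3. All 3 knockdown libraries were high and close together, and the lowest of them was 1.67 times the highest control. The log2 fold change was 1.03 ± 0.16 (SE, 3 against 3), a 2.04-fold difference, with an adjusted p = 0.145 in edgeR. Ranked by p, PKM stood 10th of the 16394 genes. An exact permutation test (two-sided, on log2 CPM) cannot go below p = 0.1 with 3 libraries a side. PKM reached that value, as did every other enzyme whose groups did not overlap.

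PKM also broke from the other steps in the library with least CALR. In knockdown replicate 2 it was 0.87 above the control mean (log2 CPM), while the median of the other 9 genes was 0.19. The corresponding pair was 1.08 and 1.002 in replicate 1, and 1.13 and 0.71 in replicate 3. In control replicates 1 to 3 the pairs were 0.13 and 0.024, 0.0054 and 0.067, and −0.13 and −0.094. PKM thus hardly departed from the other genes in knockdown replicate 1. Per transcript length, the ratio of PKM to ENO1 in FPKM (fragments scaled for transcript length and library size) was 0.593, 0.898 and 0.688 in knockdown replicates 1 to 3 and 0.520 to 0.541 in the controls. The ratio of PKM to GAPDH was 0.372, 0.568 and 0.417 in knockdown replicates 1 to 3. In the controls it was 0.364 to 0.370, so replicate 1 was barely above them. These ratios were chosen after their values were seen and were not tested.

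The first enzyme, hexokinase 2, differed least. Hexokinases trap glucose in the cell as glucose-6-phosphate. HK2, on chromosome 2 at 74833981 to 74893359 (plus strand), was at 65.5, 47.0 and 37.2 CPM in knockdown replicates 1 to 3 and at 35.9, 41.1 and 41.6 CPM in the controls. Replicates 1 and 2 were above every control and replicate 3 lay among them. Its log2 fold change of 0.34 ± 0.22 (SE) did not pass (adjusted p = 0.474 in edgeR) and its value was 0.095 without knockdown replicate 1. Without knockdown replicate 3 it was 0.53, with an unadjusted p under 0.05 and an adjusted p = 0.237 in edgeR. GPI, the isomerase that makes fructose-6-phosphate, lies on chromosome 19 at 34359480 to 34402413. It was at 528, 333 and 441 CPM against 314, 324 and 289 CPM. Its groups did not overlap, but replicate 2 exceeded the highest control by a ratio of only 1.03, and the log2 fold change was 0.49 ± 0.19 (adjusted p = 0.284 in edgeR).

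Phosphofructokinase commits the sugar to glycolysis, and PFKP encodes its platelet-type subunit (chromosome 10, 3066333 to 3137712). It was at 495, 250.01 and 328 CPM in knockdown replicates 1 to 3 and at 227, 202 and 184 CPM in the controls. Replicate 1 was far above the rest, and replicate 2 was still 1.10 times the highest control. The log2 fold change was 0.81 ± 0.25 (adjusted p = 0.219 in edgeR), or 0.50 without replicate 1. Aldolase A, from ALDOA (chromosome 16, 30064164 to 30070457), splits the sugar into triose phosphates. ALDOA was at 2600, 1521 and 2528 CPM against 1332, 1382 and 1188 CPM, so replicates 1 and 3 were nearly equal. Its log2 fold change was 0.77 ± 0.22 (adjusted p = 0.209 in edgeR). On the same strand 42.3% of its exon bases also belong to another gene of GENCODE 29, which has no row among the deposited counts. How the authors' counting treated those reads is not known.

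TPI1, whose enzyme interconverts the triose phosphates, lies on chromosome 12 at 6867119 to 6870948. Its values were 1515, 623 and 1066 CPM in knockdown replicates 1 to 3 and 653, 697 and 613 CPM in the controls. Replicate 2 fell among the controls, so the groups overlapped. The log2 fold change was 0.71 ± 0.29 (adjusted p = 0.290 in edgeR) and was 0.37 without replicate 1.

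The payoff stretch opens with GAPDH, which oxidises glyceraldehyde-3-phosphate and makes NADH (chromosome 12, 6533927 to 6538374). GAPDH is often used as a constant reference in expression assays. Here it was at 5912, 3341 and 5442 CPM in knockdown replicates 1 to 3 and at 3095, 2866 and 2554 CPM in the controls. All 3 knockdown libraries were above every control, replicate 2 by a ratio of 1.08. The log2 fold change was 0.79 ± 0.23 (adjusted p = 0.209 in edgeR). GAPDH has many processed pseudogenes, and the 18 rows named as such held reads equal to 0.018% of its own. Another gene on the other strand covers 14.2% of its exon bases.

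PGK1, which makes the first ATP of the payoff, is on chromosome X at 77910739 to 78129296. It was at 1105, 452 and 827 CPM against 491, 507 and 455 CPM. Replicate 2 was below every control, so the groups overlapped although the log2 fold change was 0.71 ± 0.29 (adjusted p = 0.289 in edgeR). Without replicate 1 it was 0.40. PGAM1, the mutase that moves the phosphate, is on chromosome 10 at 97426160 to 97433441 and had 1229, 716 and 936 CPM in knockdown against 607, 677 and 605 CPM in control libraries. ENO1, the alpha enolase that forms phosphoenolpyruvate, is on chromosome 1 at 8861000 to 8879250 (minus strand) and was at 2970, 1696 and 2646 CPM against 1684, 1609 and 1452 CPM. Both had groups that did not overlap, ENO1 by a ratio of only 1.01 between the lowest knockdown library and the highest control. The log2 fold changes were 0.61 ± 0.21 for PGAM1 (adjusted p = 0.244 in edgeR) and 0.62 ± 0.22 for ENO1 (adjusted p = 0.253). Without replicate 1, PGAM1 was at 0.39.

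**Figure D3:**
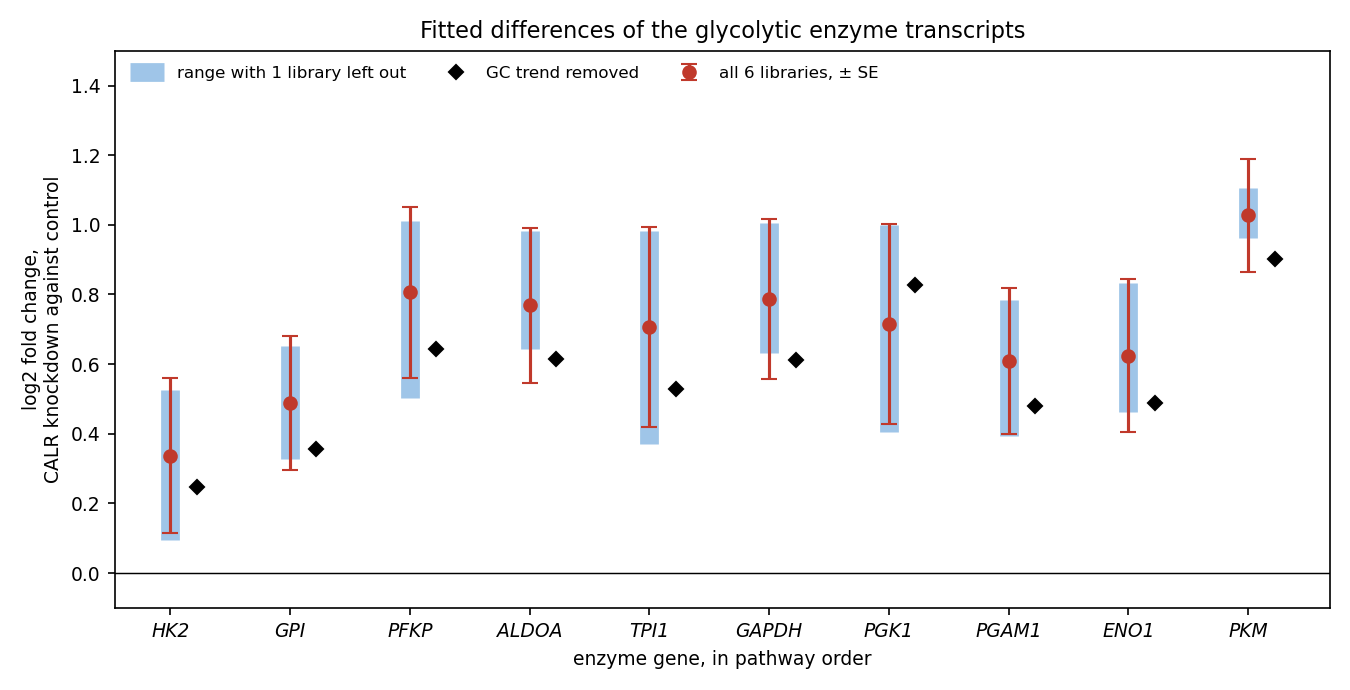
Fitted log2 fold change of each enzyme gene, CALR knockdown against control (points with SE from edgeR, all 6 libraries), with the range over fits that leave out 1 library (blue bars) and the value after each library's GC trend was removed (diamonds). All values lie above 0, from a lowest of 0.095 for HK2 without knockdown replicate 1 to 1.10 for PKM without knockdown replicate 2.

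Preparatory and payoff steps had median log2 fold changes of 0.71 and 0.71. By library the 2 medians were 1.002 and 1.06 in knockdown replicate 1, 0.23 and 0.19 in replicate 2, and 0.69 and 0.77 in replicate 3.

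Compared per length, the 10 transcripts covered a wide span of levels. In control libraries GAPDH was highest at 1245 ± 87.9 FPKM (SD, n = 3) and ranked 29th of 31356 genes, and HK2 was lowest at 6.51 ± 0.686 FPKM, a ratio of 191 between them. The order of control levels was GAPDH, ENO1 (866 ± 44.9 FPKM), PKM (457 ± 29.7 FPKM), PGAM1 (336 ± 25.2 FPKM), ALDOA (302 ± 20.4 FPKM), TPI1 (294 ± 18.6 FPKM), PGK1 (96.8 ± 4.63 FPKM), GPI (69.9 ± 3.52 FPKM), PFKP (52.8 ± 4.09 FPKM) and HK2. Control values of PGAM1, ALDOA and TPI1 overlapped one another, so the spread between libraries did not separate these neighbours, although within each control library PGAM1 was above ALDOA and ALDOA above TPI1. The other neighbours had no overlapping control libraries. In knockdown libraries the means kept this order, with GAPDH at 1954 ± 455 FPKM, PKM at 853 ± 22.9 FPKM and HK2 at 7.57 ± 2.26 FPKM, while PGAM1 (468 ± 113 FPKM) and ALDOA (467 ± 103 FPKM) were nearly equal. FPKM values are not TMM-scaled: on the log2(FPKM + 1) scale the median of all genes was −0.08, and the median of the 10 genes was 0.49, with 6 at an unadjusted p under 0.05 in limma (5.5% of all genes), or 4 without a filter (2.98%).

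Promoter stretches of 5 of the enzymes are printed here because their windows hold ACGTG, a form of the core motif of hypoxia response elements, as far as they hold no annotated exon. Windows of TPI1 and GPI hold it too and are not printed. The stretches come from RefSeq windows on GRCh38.p14 that end just before a start site. All those printed lie inside the gene spans given above, before start sites downstream of the gene's first annotated base. HK2, PFKP and ALDOA also have other windows, and the other windows of PFKP hold no ACGTG. Capitals mark ACGTG or its reverse complement CACGT; the other form of the core, GCGTG, is left in lower case. The palindrome CACGTG, an E-box that MYC can bind, matches on both strands and counts as 2. By this count 1 window of HK2 has the most ACGTG matches, 4, which come from 2 CACGTG palindromes. The window of PGK1 has 2 matches and no palindrome. Whether matches go with the differences between the groups was not tested.
HK2, chr2:74834920-74835169, plus strand: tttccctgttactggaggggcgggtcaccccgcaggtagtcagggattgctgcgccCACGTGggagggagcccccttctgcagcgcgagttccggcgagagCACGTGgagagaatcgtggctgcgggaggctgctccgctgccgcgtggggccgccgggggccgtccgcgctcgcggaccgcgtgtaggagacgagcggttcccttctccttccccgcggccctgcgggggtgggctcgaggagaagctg
GAPDH, chr12:6535142-6535263, plus strand: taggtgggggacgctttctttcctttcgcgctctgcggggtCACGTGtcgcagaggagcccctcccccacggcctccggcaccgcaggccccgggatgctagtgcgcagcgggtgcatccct
ALDOA, chr16:30065510-30065672, plus strand: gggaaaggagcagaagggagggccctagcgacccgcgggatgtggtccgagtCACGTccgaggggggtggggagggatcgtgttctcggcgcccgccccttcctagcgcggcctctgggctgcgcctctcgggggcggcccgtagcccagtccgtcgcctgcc
PGK1, chrX:78103998-78104173, plus strand: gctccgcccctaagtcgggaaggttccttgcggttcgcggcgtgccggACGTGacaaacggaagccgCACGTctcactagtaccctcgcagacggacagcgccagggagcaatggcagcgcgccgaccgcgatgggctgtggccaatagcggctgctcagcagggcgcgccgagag
PFKP, chr10:3068939-3069188, plus strand: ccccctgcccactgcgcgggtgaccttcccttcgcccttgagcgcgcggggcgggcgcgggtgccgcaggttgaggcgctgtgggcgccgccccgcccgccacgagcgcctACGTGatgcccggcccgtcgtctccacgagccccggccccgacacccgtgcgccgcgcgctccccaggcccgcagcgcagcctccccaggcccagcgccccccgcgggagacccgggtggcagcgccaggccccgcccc
All 10 genes matched the RefSeq table, with 17 windows of 250 bases. The motif ACGTG, on either strand, was in 10 of the 17 windows (58.8%), which belong to 7 of the 10 genes, and in 18.5% of all 35116 windows of that length. The 17 windows are not independent, as some genes have several and those of ALDOA at 30064029 to 30064278 and 30064247 to 30064496 overlap. Some hold annotated exon. Those of GPI, PGAM1, ENO1 and PKM, and that of TPI1 at 6867281 to 6867530, do so in all 250 bases. Their GC content was 53.2% to 81.6% and was not compared with that of all windows. GCGTG was in 6 of the 17 windows (35.3%), of 5 genes, and in 32.2% of all, so that form was near the level of all windows. CACGTG was in 3 of the 17 windows (17.6%) and in 6.34% of all. The windows of PKM, PGAM1 and ENO1, which are annotated exon throughout, held no ACGTG, and that of ENO1 held 2 GCGTG. These letters describe the windows and show no binding.

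Isozymes of the same steps placed the 10 genes within their reactions. HK1, not HK2, supplied most hexokinase transcript: HK2 made up 7.91% ± 0.542 of the step's FPKM in control and 7.46% ± 2.11 in knockdown libraries (SD, n = 3). HK1 was at 473, 366 and 496 CPM in knockdown replicates 1 to 3 and at 325, 333 and 323 CPM in the controls. All 3 knockdown libraries were above the controls (log2 fold change 0.44 ± 0.17, adjusted p = 0.268 in edgeR). PFKP held 59.0% ± 1.62 of phosphofructokinase FPKM in control and 60.7% ± 4.33 in knockdown libraries. PFKL, the liver-type subunit, was at 154, 50.7 and 111 CPM against 56.6, 52.0 and 47.2 CPM. Its replicates 1 and 3 were high and replicate 2 lay among the controls (log2 fold change 1.02 ± 0.34, adjusted p = 0.233 in edgeR). ALDOA, ENO1, PGAM1, GAPDH, PGK1 and PKM made up at least 93.6% of their steps in every library. Of 17 other isozyme genes 8 were tested, and the unadjusted threshold was passed by 2 of them as higher (HK1 and PFKL) and by 0 as lower, beside 8.17% and 7.36% of all tested genes. Their median log2 fold change was 0.56.

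**Figure D4:**
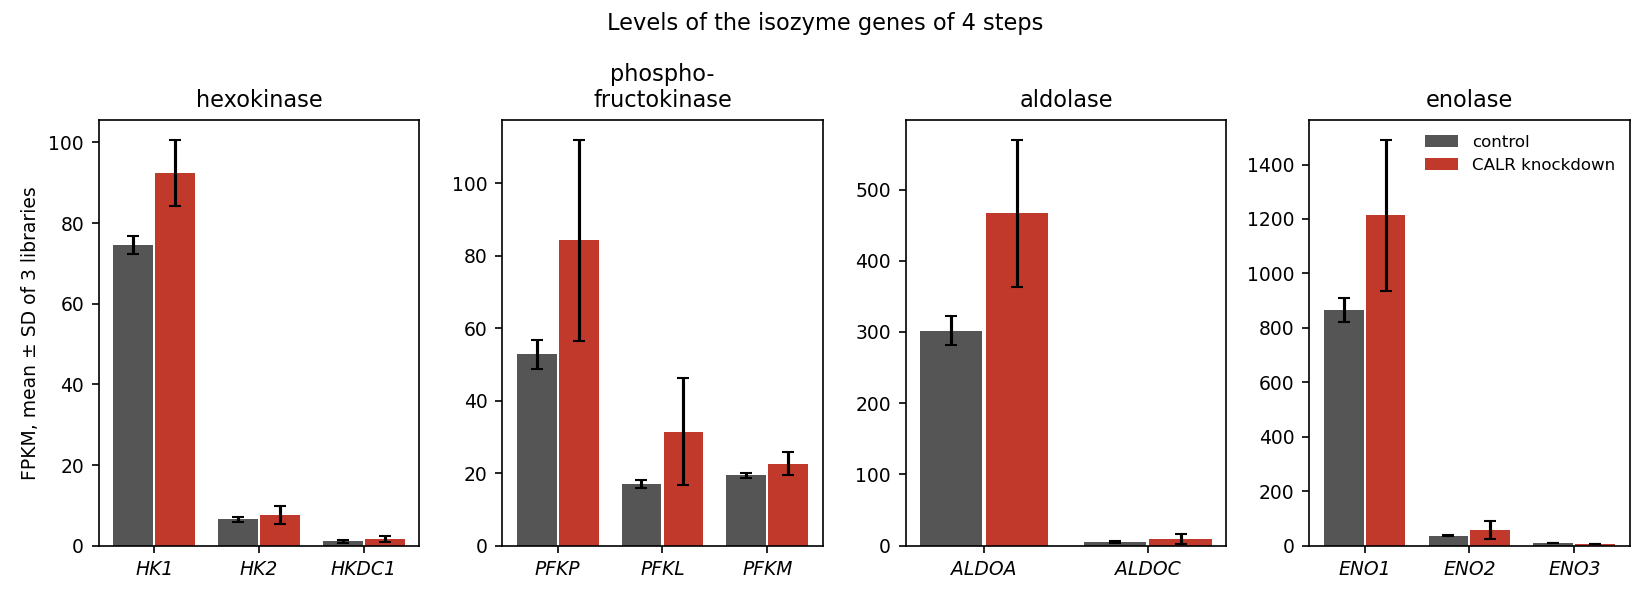
FPKM of the isozyme genes with transcript in the hexokinase, phosphofructokinase, aldolase and enolase steps (bars, mean of 3 libraries from 0; error bars, SD), control in grey and CALR knockdown in red. HK1 far exceeds HK2, at 74.5 against 6.51 FPKM in controls, and ALDOA and ENO1 dominate their steps in both groups.

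Neuronal enolase ENO2 and aldolase C (ALDOC), the minor isozymes, were highest in knockdown replicate 1, with replicate 3 also above the controls and replicate 2 below every control. ENO2 was at 334, 104 and 166 CPM in knockdown replicates 1 to 3 and at 131, 115 and 109.7 CPM in the controls, with a log2 fold change of 0.76 ± 0.36. ALDOC was at 39.8, 6.78 and 17.8 CPM against 13.3, 9.17 and 7.17 CPM (1.12 ± 0.54). Neither reached an unadjusted p under 0.05. ENO3, the muscle enolase, ran the other way at 10.95 to 12.3 CPM in knockdown and 12.8 to 14.7 in control libraries, without overlap (adjusted p = 0.504 in edgeR). Of all tested genes, 11.2% were lower in knockdown without overlap.

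Genes that regulate the flux went in both directions. Of 11 listed, 10 were tested, and at an unadjusted p under 0.05 there were 3 higher and 2 lower, beside 8.17% and 7.36% of all tested genes. Higher were PGM1, which feeds glucose-1-phosphate into the pathway (0.77 ± 0.22, SE), ADPGK, the ADP-dependent glucokinase (0.51 ± 0.15), and VDAC1, the mitochondrial channel on which hexokinase docks (0.45 ± 0.16). Lower were TXNIP, whose protein restrains glucose uptake, and TIGAR, a fructose-bisphosphatase that slows glycolysis. TXNIP was at 40.5, 38.2 and 119 CPM in knockdown replicates 1 to 3 and at 171, 166 and 159 CPM in the controls. All 3 knockdown libraries were below every control, as in 11.2% of all tested genes. Replicates 1 and 2 were so by far (log2 fold change of TXNIP −1.32 ± 0.40, adjusted p = 0.219 in edgeR). TIGAR was at 12.2 to 14.4 CPM against 17.6 to 18.9 CPM (−0.45 ± 0.18). Of the PFKFB enzymes, which set the phosphofructokinase activator fructose-2,6-bisphosphate, PFKFB3 was at 112, 68.3 and 73.5 CPM against 48.8, 66.5 and 64.6 CPM, and PFKFB4 at 113, 36.7 and 54.9 CPM against 34.8, 42.9 and 39.9 CPM. Both were highest in replicate 1, the groups of PFKFB3 did not overlap, and neither gene reached an unadjusted p under 0.05. PFKFB2 went the other way, at 29.5, 35.0 and 28.5 CPM against 30.5, 43.0 and 42.0 CPM, with overlapping groups (−0.31 ± 0.20). Of 6 genes of the reverse pathway 3 were tested (FBP1, PCK2 and G6PC3), with 0 higher and 0 lower.

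At the end of the pathway, LDHA, which turns pyruvate into lactate, was at 3204, 1313 and 1550 CPM in knockdown replicates 1 to 3 and at 1662, 1399 and 1327 CPM in the controls, so replicate 1 alone was above all of them (log2 fold change 0.47 ± 0.32, adjusted p = 0.481 in edgeR). LDHB, the other lactate dehydrogenase subunit, was at 684, 587 and 486 CPM against 564, 496 and 471 CPM, with replicates 1 and 2 above every control (0.20 ± 0.18). Among 7 genes of glucose entry and lactate, 1 was higher (the transporter SLC2A1, at 209 to 423 against 187 to 205 CPM) and 1 lower (SLC16A1, a lactate carrier, at 0.657 to 4.27 against 6.20 to 13.2 CPM) at an unadjusted p under 0.05, beside 8.17% and 7.36% of all tested genes. SLC16A3, the other listed lactate carrier, had far more reads, at 494, 120 and 253 CPM against 203, 162 and 144 CPM. Its groups overlapped (log2 fold change 0.77 ± 0.42) and it did not reach an unadjusted p under 0.05. As for transcription factors, HIF1A was at 154, 346 and 154 CPM in knockdown replicates 1 to 3, and at 282, 182 and 189.8 CPM in the controls, and among the knockdown libraries it was highest in replicate 2, which had the lowest enzyme levels of the 3. EPAS1, which encodes HIF-2 alpha, was at 101, 61.5 and 151 CPM against 153, 101 and 98.0 CPM, lowest in replicate 2. Neither HIF1A nor EPAS1 reached an unadjusted p under 0.05. MYC was at 173, 126 and 219 CPM against 264, 318 and 307 CPM, below every control in all 3 (log2 fold change −0.78 ± 0.22, adjusted p = 0.200 in edgeR). It was lower at an unadjusted p under 0.05, as were 7.36% of all tested genes. Groups lower without overlap were found for 11.2% of all tested genes.

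GC content moved with the libraries as well. For the genes in the top quartile of GC content, the median difference from the control mean was 0.18 and 0.37 in knockdown replicates 1 and 3 and −0.12 in replicate 2, and for the bottom quartile it was −0.40, −0.52 and 0.11. Transcripts of 9 of the 10 enzymes lay above the median GC content of 48.0%, and only PGK1, at 43.3%, lay below it, with its knockdown libraries in the order 1, 3, 2 from high to low. When each library's GC trend was removed before the edgeR fit, the median of the 10 genes was 0.57, and 8 were at an unadjusted p under 0.05 (9.5% of all genes were called higher). In that GC fit PKM was at 0.90 ± 0.14 (adjusted p = 0.077), PGK1 at 0.83 ± 0.31 and TPI1 at 0.53 ± 0.24. With the replicate number as a block, 8 enzymes were at an unadjusted p under 0.05 (5.98% of all genes), and with block and GC trend together 7 were (8.58% of all genes, and 0.0061% after adjustment).

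The genes with the most similar profile over the 6 libraries were sought among 6027 others with a mean log2 CPM of at least 5, by Pearson's r with the mean standardised log2 CPM of the 10 enzymes. The 5 closest were USP54 (r = 0.996), TUBGCP2 (0.996), GSTM1 (0.996), RPH3AL (0.995) and MLPH (0.994). TUBGCP2, a gamma-tubulin complex component, was at 171, 99.3 and 138 CPM in knockdown replicates 1 to 3 and at 82.4, 83.5 and 79.0 CPM in the controls. Melanophilin (MLPH) was at 158, 102 and 132 CPM against 85.0, 89.5 and 83.4 CPM. GSTM1, a glutathione transferase with close paralogs that may share reads, was at 72.2, 40.5 and 58.3 CPM against 35.8, 36.3 and 30.6 CPM. All 5 had replicate 1 highest and replicate 2 lowest among the knockdown libraries. With only 6 libraries in 2 groups a high r is common: 467 of the 6027 genes (7.75%) had an r of at least 0.9. The 5 named genes are the highest of these, picked for their r. Among the 10 enzymes themselves r ran from 0.663 for HK2 and 0.864 for PKM to 0.997 for GPI. Each enzyme is part of the mean it was set against, which raises its r, so these values are not comparable with those of the other genes.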

How the data were processed

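RNA of 6 libraries was sequenced, 3 of CALR knockdown and 3 of control cells, and samples were grouped by their titles. The deposited count table gives whole reads per gene and the deposited FPKM table values rounded to 2 decimals. The tools and build named are FastQC 0.9.5, TopHat2 and GRCh38, per the submitters' processing notes, and the kit was strand-specific, per the labels; counting program, strand setting and annotation: not given in the sources used here. Totals were 34639090 to 42425310 counts. Replicates of a group differed beyond sampling noise (chi-square per gene 11.8 to 199).

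Genes were filtered with filterByExpr and TMM-scaled, and tested with edgeR 4.0.16 (quasi-likelihood, R 4.3.3, no covariate, Benjamini-Hochberg over 16394 genes, threshold 0.05), a script tested on simulated data. SE is the absolute log2 fold change over the square root of F. Log2 CPM has a prior count of 2. DESeq2 1.42.0 and limma 3.58.1 served as alternatives. GC content is that of the longest GENCODE 29 transcript (99.4% of tested genes), its trend fitted by loess with a span of 0.5. Positions are from GENCODE 29.

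The enzymes and lists were chosen with earlier results of these data known. Named genes are the 10 enzymes, CALR, the 5 pathway lists (17 other isozymes, 11 flux regulators, 6 gluconeogenic genes, 7 glucose entry and lactate genes, 3 transcription factors) and the 5 genes most like the enzymes' mean, plus identity markers, of which 1 is not reported here.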

Additional observations from a re-analysis of the deposited data

How the results depend on the processing

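Each of the 10 enzymes kept a positive log2 fold change under all 19 alternatives (0 of 190 values were negative), and 0 were lower at an unadjusted p under 0.05 in any of them. Their median was 0.43 to 0.98. The number past the adjusted threshold was 0 with all 6 libraries in edgeR, 3 with DESeq2 and 0 to 9 with 1 library left out. It was 6 without a low-count filter, where the SEs of the enzymes were nearly equal. The number higher at an unadjusted p under 0.05 was 9 in edgeR, 4 with limma on log2(FPKM + 1) without a filter and 4 to 9 with 1 library left out. The cause of these shifts was not tested. Over all genes, the adjusted calls went from 0 to 290 higher and 240 lower with DESeq2, 431 and 557 without the filter, 3 and 2 on log2(FPKM + 1) without a filter, 1303 and 1301 without knockdown replicate 2, and 21 and 117 without knockdown replicate 3. Library size alone gave 730 and 1809 genes with an unadjusted p under 0.05, higher and lower, beside 1340 and 1206 with TMM, moved the median of all genes to −0.13, and left 6 of the 10 enzymes called with a median of 0.55. On the log2(FPKM + 1) scale the split was 679 and 1318.

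Deviations of same-numbered libraries from their group means correlated at 0.20, −0.12 and −0.22, and those of differently numbered ones at −0.20 to 0.36. Each mean comes from the same 3 libraries, so these values cannot settle whether the replicate numbers pair the samples. With the replicate block, 0 enzymes passed the adjusted threshold, 8 were higher at an unadjusted p under 0.05 and the median was 0.62; with the block and the GC trend removed, 0, 7 and 0.53. In that pair of fits the calls over all genes were 0 and 1. Adding pseudogene reads left the counts at 0 and 9. Depth was no limit for these genes, whose lowest count was 1357 (HK2).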
